A study of Capra hircus with 23 samples.

Results

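The 100 features described here were those whose level in goat ear fibroblasts was lowered most from the first day of small-molecule induction through day 8. They were selected on the deposited counts of 7 libraries. Each count was divided by the library total and multiplied by 1000000 to give the CPM value, and log2(CPM + 1) was taken. Of 28931 features, the 20455 with at least 1 count over the day 8 libraries were scored by the lower of the first and second day 0 libraries minus the highest day 1 or day 8 library. A score above 0 was found for 2166 features, and the 100 highest scores were taken as the members. The differences of these day 0 libraries from day 1 and day 8 are therefore given as a description, without a test.

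The cells were ear fibroblasts of Guanzhong dairy goats a few months old, with no genetic modification in the labels, grown on Matrigel-coated plastic. Fibroblast medium was replaced on the day after seeding by the BFRTV induction medium (5i in the column names), which contained Forskolin, TTNPB, VPA, Repsox and Tranylcypromine, and the induction was followed toward mammary epithelial-like cells. RNA depleted of ribosomal RNA was sequenced as random-primed cDNA. The 17 libraries formed 7 groups, of 3 libraries for day 0 (CK, uninduced fibroblasts), day 4 and day 8, and of 2 libraries for days 1, 2, 3 and 6. All induced groups differed from day 0 in both the compounds and the medium, and no induced time point had a fibroblast-medium control, so compounds, medium and days in culture cannot be told apart. Another 6 of the 23 labelled samples, from induced cells after passage and from mammary epithelial cells, were not analysed here. The sample titles carried the prefix DF6 or DF7, and both prefixes occurred on every day. The labels did not say whether these stand for cultures, goats or batches, and the column names gave the day but not the prefix. P-values therefore measure only the spread between the libraries of a day, which may include a difference between the prefixes or be technical.

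Fibroblasts make and remodel the connective tissue matrix, contract and respond to TGF-beta, whereas mammary epithelial cells form polarised sheets joined by tight and adherens junctions and secrete milk. Repsox inhibits the TGF-beta type I receptor kinase, Forskolin raises cyclic AMP through adenylyl cyclase, TTNPB activates retinoic acid receptors, VPA inhibits histone deacetylases and Tranylcypromine inhibits monoamine oxidases and a histone lysine demethylase. Transcripts lost early in such an induction are commonly examined for the identity genes of the starting cell. The deposited identifiers matched 0 of 28911 genes of the RefSeq table used here and the files do not pair them with gene names. The roles of the members, their sequences and the labelled cell type were therefore not examined, and members are given by score rank except for 2 identifiers that fell, gene15690 and gene4959.

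Library totals lay between 21540742 and 26165393 counts, so that 3 counts, the floor used here, corresponded to 0.115 to 0.139 CPM. The third day 0 library, CK3, stood apart from CK1 and CK2. The number of features counted in CK3 was 15605, compared with 18093 for CK1 and 18102 for CK2, and its count-weighted mean feature length was 2552 nt against 3920 nt and 3855 nt there and 3259 to 4118 nt in the 14 induced libraries. Its edgeR TMM factor, the scaling fitted on top of the library total, was 0.345 when fitted with the libraries of days 2 to 6, which had factors between 1.06 and 1.19. CK3 was not used in choosing the members, and results are given with and without it.

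The members had clear counts in CK1 and CK2 at nearly equal levels. Their mean level over these libraries ran from 2.79 to 6514 CPM with a median of 73.3 CPM, 43 members were at 100 CPM or above and 12 were at or under 10 CPM. The ratio of CK1 to CK2 lay between 0.814 and 1.23 with a median of 1.00. Per length, as FPKM, the members ran from 0.759 to 3625 FPKM with a median of 26 FPKM. The median member stood at the 84.6th percentile of the 18986 features with counts in CK1 or CK2, the lower quartile at the 64.1st and the lowest member at the 32.9th. Lengths of the members ran from 660 to 9749 nt with quartiles of 1853 and 4335 nt, close to the quartiles of 1741 and 4513 nt among the 12740 features at or above the lowest member's FPKM.

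The scores ran from 6.94 for the first member to 1.54 for the last, and their quartiles were 1.72 and 2.60. The fall from rank 1 to rank 2, which scored 3.84, was larger than the whole span of the other 99 members. Just inside the limit, the member of rank 100 had 219.7 and 226.8 CPM in CK1 and CK2, 57.6 and 75 CPM on day 1, and 15.8, 15.2 and 19.1 CPM on day 8. Just outside it, the feature of rank 101, which scored 1.53, had 7.22 and 7.96 CPM in CK1 and CK2, 1.84 and 1.57 CPM on day 1, and 0.720, 0.244 and 0.535 CPM on day 8.

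Together the members took 2.48% of all counts in CK1 (95% exact binomial interval 2.47 to 2.49%, counting error only) and 2.49% in CK2. Day 1 libraries gave 0.568% and 0.471%, day 2 libraries 0.594% and 0.583%, and day 3 libraries 0.563% and 0.516%. The share was 0.482%, 0.484% and 0.462% on day 4, 0.324% and 0.350% on day 6, and 0.296%, 0.293% and 0.289% on day 8. The low shares on days 1 and 8 were set by the choice of members. The share stayed near the day 1 level through day 4, and both day 6 libraries lay below all libraries of days 1 to 4. Much of each sum came from the member highest in CK1 and CK2. On day 1 the members summed to 5684 and 4713 CPM, and to 3507 and 2749 CPM without it. On day 6 they summed to 3242 and 3504 CPM, and to 2226 and 2116 CPM without it. CK3 gave 1.75%, between CK1 and CK2 and the induced libraries, but 4 members with 5551, 3282, 2992 and 1952 CPM made up 78.9% of its sum. In bulk RNA, fewer cells of a type and less RNA per cell cannot be told apart.

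**Figure D1:**
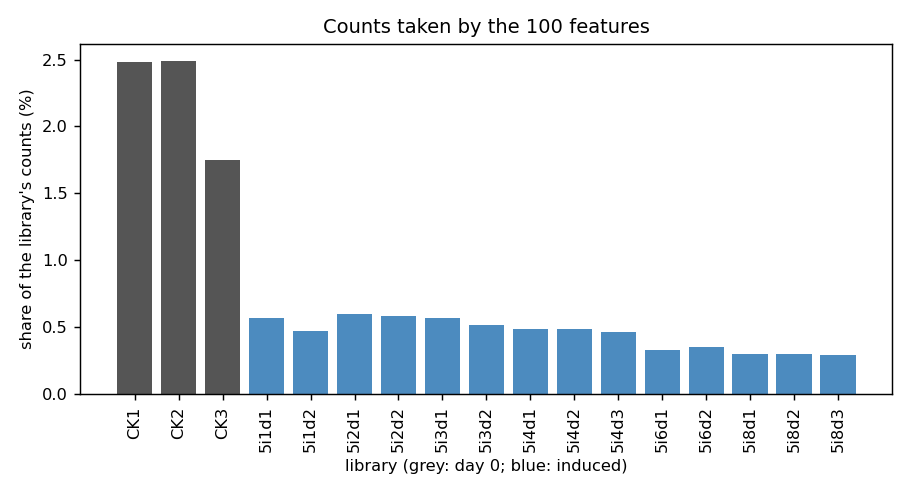
Share of each library's counts (%) taken by the 100 members, with grey bars for day 0 and blue bars for induced libraries. CK1 and CK2 stand near 2.5%, CK3 at 1.75%, and the 14 induced libraries between 0.289% and 0.594%.

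Relative to the mean of CK1 and CK2 on the log2(CPM + 1) scale, the median member was at −2.48 on day 1, −2.56 on day 2, −2.56 on day 3, −2.63 on day 4, −2.89 on day 6 and −2.99 on day 8. The medians of the 11944 features at the members' levels were 0.04, 0.08, 0.13, 0.11, −0.04 and −0.10 on the same days. The day 1 and day 8 values were set by the choice of members. Of the day 8 fall, the median member had reached 88.1% at day 1 (quartiles 63.3 and 105%). At least 75% was reached at day 1 by 64 members and under 50% by 13, and the day 1 mean of 36 members was already at or below their day 8 mean.

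**Figure D2:**
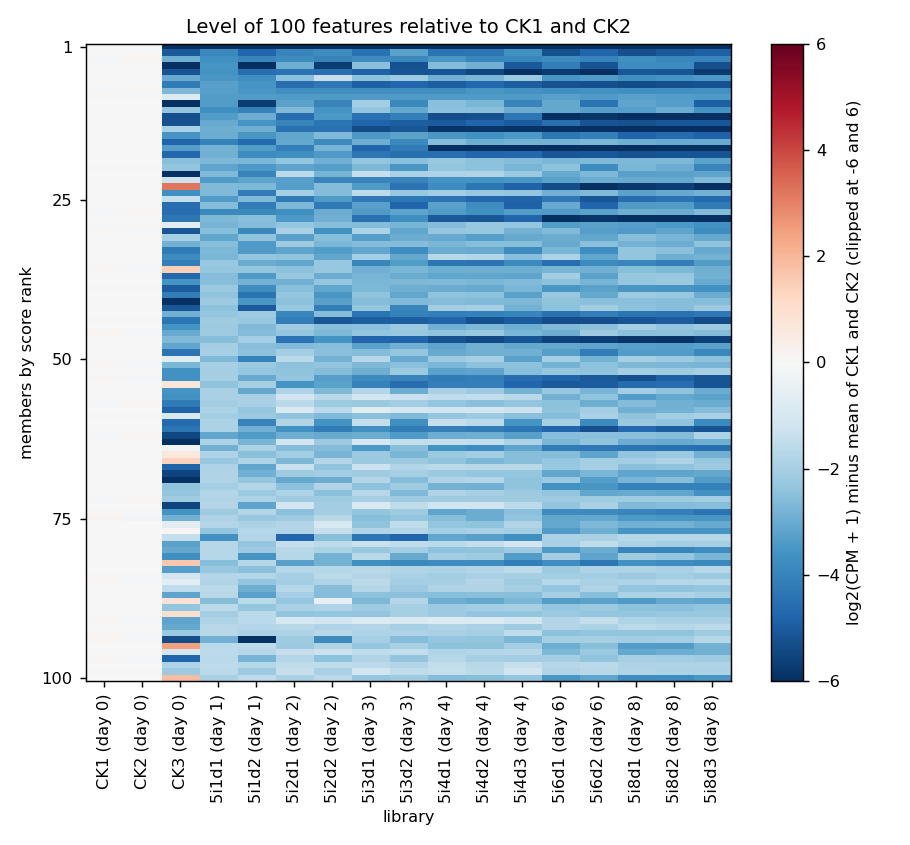
Level of each member (1 line per member, by score rank) in each of the 17 libraries as log2(CPM + 1) minus the mean of CK1 and CK2, with colours clipped at −6 and 6. The 14 induced libraries lie below CK1 and CK2 for every member, while CK3 holds both the lowest values and 11 members above CK1 and CK2.

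Days 2, 3, 4 and 6, which were not used in choosing the members, showed whether the lowering held between the days that were. CK1 and CK2 lay above all 9 libraries of these days for 100 of 100 members, where 10.6% of 22168 features with counts did so. The high level in CK1 and CK2 was itself fixed by the rule. The gap between the lower of CK1 and CK2 and the highest of these 9 libraries ran from 0.45 to 7.07 on the log2(CPM + 1) scale with a median of 2.04, and it was 1 or more for 94 members. No member was back at its CK1 and CK2 level at any time point.

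Some members were higher on days that the rule did not use than on day 1 and day 8. The rule favoured members with low day 1 and day 8 libraries, so other libraries can lie above these without a return. The share over all features was not computed. The highest of the 9 libraries lay above the highest day 1 or day 8 library for 49 members, but by 1 or more in only 7. Every library of a day lay above that limit for 9 members on day 2, 13 on day 3, 13 on day 4 and 1 on day 6, which made 17 members in all. The member of rank 21, with 648 and 637 CPM in CK1 and CK2, had 101 and 39.8 CPM on day 1, 206 and 91.3 CPM on day 2, 243 and 167 CPM on day 3, 175, 186 and 135 CPM on day 4, 78.7 and 97.9 CPM on day 6, and 66.1, 68.1 and 70.4 CPM on day 8. Its days 3 and 4 stood above day 1 in every library without reaching CK1 or CK2.

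The time of the lowest mean differed among the members. The mean was lowest on day 8 for 40 members, on day 1 for 22, on day 6 for 14, and on days 2, 3 and 4 for 8 each. The rule favoured low values on days 1 and 8, so these counts are a description and do not date the lowest level. Over the 14 induced libraries the mean of 18 members was below 1 CPM, whereas 47 members kept 10 CPM or more and 7 kept 100 CPM or more. The member of rank 9 had fewer than 3 counts in every induced library, with 9.8 and 9.1 CPM in CK1 and CK2 and 4.9 CPM in CK3.

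The highest score belonged to gene15690 (2688 nt). It had 273.5 CPM in CK1 and 265.8 CPM in CK2. Its level was 1.13 and 0.690 CPM on day 1, 0.509 and 0.559 CPM on day 2, 0.328 and 0.582 CPM on day 3, 0.666, 0.834 and 0.515 CPM on day 4, 0.990 and 0.606 CPM on day 6, and 0.675, 1.18 and 0.0764 CPM on day 8. The mean over the 14 induced libraries was 0.667 CPM ± 0.296 (SD, n = 14), or 404-fold below CK1 and CK2. These libraries held 2 to 29 counts of it, so its order among the induced days was not resolved, and day 6 against day 2 gave a log2 fold change of 0.64 (SE 0.48, adjusted p = 0.325 by edgeR's quasi-likelihood test with Benjamini-Hochberg adjustment). CK3 gave 1.07 CPM, among the induced libraries and far below the other day 0 libraries.

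The most abundant member per length was gene4959 (1797 nt, rank 96), with a mean of 3625 FPKM in CK1 and CK2 and 25.9% of the members' summed CPM in CK1. It had 6422 and 6605 CPM in CK1 and CK2 and 2992 CPM in CK3. The induced libraries gave 2176 and 1964 CPM on day 1, 2494 and 2654 CPM on day 2, 2258 and 2317 CPM on day 3, 1871, 1922 and 1972 CPM on day 4, 1016 and 1388 CPM on day 6, and 786, 813 and 869 CPM on day 8. Its course was stepwise, from 3.15-fold below CK1 and CK2 on day 1 and 2.53-fold on day 2 to 5.42-fold on day 6 and 7.92-fold on day 8, and the libraries of days 2, 4, 6 and 8 did not overlap. Day 6 was below day 2 by a log2 fold change of −1.03 (SE 0.18, adjusted p = 0.00810, edgeR's quasi-likelihood test with Benjamini-Hochberg adjustment). Without library 5i6d1 the value was −0.83 with an adjusted p of 0.0505.

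**Figure D3:**
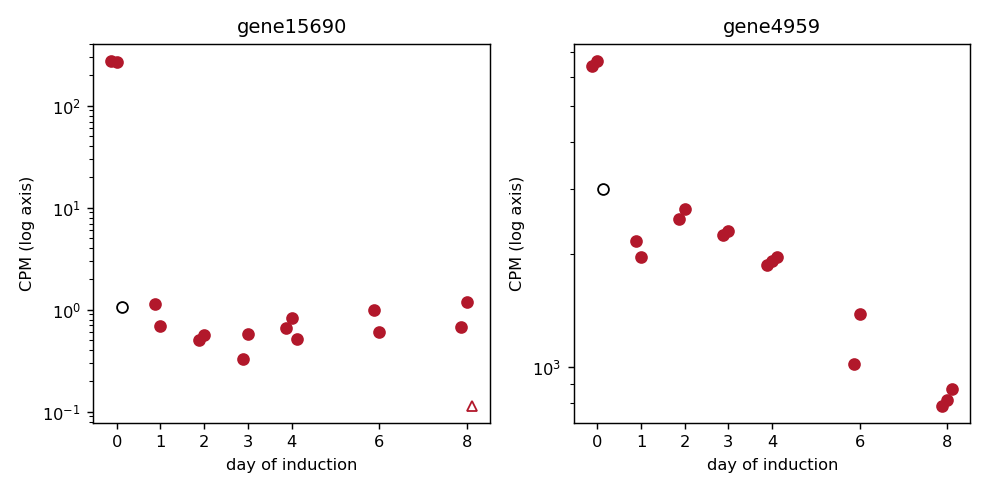
CPM on a log axis of gene15690 and gene4959 in each library against the day of induction, with CK3 as an open circle and an open triangle where a library held fewer than 3 counts. gene15690 was at 1.18 CPM or less in every induced library, and gene4959 went in steps from 6422 and 6605 CPM in CK1 and CK2 to between 786 and 869 CPM on day 8.

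To find which members fell further during the induction, days 2, 3, 4 and 6 were compared among themselves. For day 6 against day 2, 91 members passed the filter on low counts, and 31 were called lower and 0 higher by edgeR's quasi-likelihood test at an adjusted p under 0.05. The same test called 14.5% of 16212 features lower and 13.6% higher. At an unadjusted p under 0.05, 41 members were lower and 2 higher, beside 22.9% and 20.9% of all features. The median log2 fold change was −0.50 over the members tested and −0.02 over all features, and 68 of the 91 members had a value below 0. Without library 5i6d1 the count of members called lower was 14, beside 2.3% of all features, and without library 5i6d2 it was 19, beside 7.53%. Without 5i2d1, 4 members were called higher, beside 25.2% of all features.

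The 31 members called lower had log2 fold changes from −0.76 to −4.32 with a median of −1.82, and 15 of them were at −2 or below. The largest fall was that of rank 18, with −4.32 (SE 0.50, adjusted p = 0.00214 by edgeR). The member of rank 17, with 1063 and 1055 CPM in CK1 and CK2, 107 CPM in CK3 and 146 and 103 CPM on day 1, had 61.0 and 154 CPM on day 2, 38.2 and 57.7 CPM on day 3, 15.5, 15.4 and 13.7 CPM on day 4, 11.2 and 4.44 CPM on day 6, and 7.38, 7.85 and 4.97 CPM on day 8. It thus went on falling after day 2 and reached 11.2 CPM or less by day 6, with a log2 fold change of −3.75 (SE 0.59, adjusted p = 0.00585 by edgeR).

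Of the 31 members called lower at day 6, 15 were among the 50 highest scores. The day 8 mean was below the day 1 mean for 30 of the 31 against 34 of the other 69. Of the day 8 fall, the median share reached at day 1 was 56.6% against 100%. These values of day 1 and day 8 chose the members, so they are given as a description, without a test, and do not back the calls. The same values were not computed for all features called lower at day 6.

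**Figure D4:**
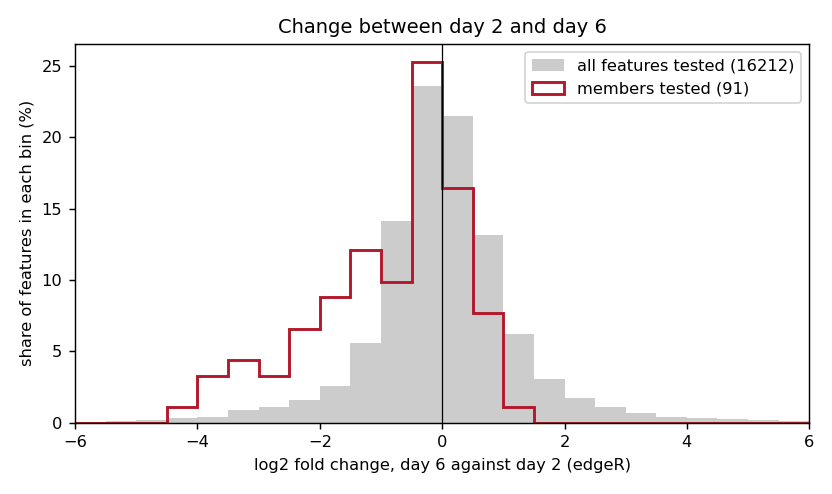
Distribution of edgeR log2 fold changes of day 6 against day 2, as the share of features (%) in each bin, for all 16212 features tested (grey) and the 91 members tested (red line). The median was −0.50 for the members and −0.02 for all features.

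The step was less clear at shorter intervals. For day 4 against day 2, 6 members were called lower and 0 higher, beside 0.524% and 0.901% of all features, and all 6 were also called lower for day 6 against day 2. The median member was at −0.24, and 32 members were lower and 1 higher at an unadjusted p under 0.05, beside 11.9% and 10.5% of all features. The count of members called lower was 0 without each of 5i4d1, 5i4d2 and 5i4d3, beside 0% of all features. These fits thus called no feature lower, member or not. Leaving out a library of day 2, 3 or 6 left 1 library in that group, so only the size of the change is given. The count of 6 was not kept in any of these fits, and without 5i2d2 no feature was called, member or not. The median member was at −0.22 without 5i2d1, −0.27 without 5i2d2, −0.24 without 5i3d1 and −0.23 without 5i3d2. It was at −0.23 without 5i6d1 and −0.24 without 5i6d2.

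For day 6 against day 4, edgeR called 0 members lower and 0 higher, beside 0.21% and 0.315% of all features, with a median of −0.44. At an unadjusted p under 0.05, 27 members were lower and 6 higher, beside 10% and 9.22% of all features, while DESeq2 called 13 lower and 1 higher, beside 3.14% and 2.88%. Without 5i2d1, edgeR called 6 members lower and 2 higher, beside 1.99% and 2.39% of all features, and without 5i2d2 it called 5 lower and 2 higher, beside 1.85% and 2.33%. The means of 33 members fell at each step over days 2, 3, 4 and 6, and those of 2 members rose at each step. The share of all features with such a course was not computed, so these counts are a description only.

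Over all members, both day 6 libraries lay below both day 2 libraries for 50 and above them for 6, beside 31.5% and 25.1% of 21074 features with counts on these days. The member of rank 78, with 75.6 and 75.8 CPM in CK1 and CK2 and 27.8 CPM in CK3, had 1.87 and 12.2 CPM on day 2, 19.6 and 18.9 CPM on day 6 and 22.5, 22.1 and 22.4 CPM on day 8. It was the only member whose mean log2(CPM + 1) was at least 1 higher at day 6, whereas 28 members were at least 1 lower. The share of all features with such a change was not computed. For rank 78 the edgeR log2 fold change of 1.47 was not called (adjusted p = 0.149, edgeR). Its day 1 libraries, at 5.18 and 21.9 CPM, were also far apart.

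The other 9 members were not tested in these fits. None exceeded 0.606 CPM in any library of days 2 to 6, and their means in CK1 and CK2 were 2.79 to 15.3 CPM.

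Some members differed at least 2-fold between the libraries of a day. Levels at least 2-fold apart within a day were seen for 23 members on day 1, 22 of them higher in 5i1d1, for 18 on day 2, 12 of them higher in 5i2d1, for 12 on day 3, 11 of them higher in 5i3d1, and for 10 on day 6, all higher in 5i6d1. On day 4 there were 7 such members, all lowest in 5i4d3, and on day 8 there were 5, all lowest in 5i8d3. The share of all features this far apart was not computed, so these counts are not shown to be particular to the members. Across 15519 features the difference of library 1 from library 2 also correlated between days 2 and 3 (Pearson's r 0.75). The correlation with day 6 was weaker (0.14 for day 2 and 0.28 for day 3). Features at the members' levels also differed between some libraries. Their median relative to CK1 and CK2 was 0.16 in 5i1d1 and −0.09 in 5i1d2. It was 0.16 in 5i2d1 and 0.03 in 5i2d2, 0.15 in 5i3d1 and 0.10 in 5i3d2, and −0.06 in 5i6d1 and −0.02 in 5i6d2. Ranks 4, 26, 60 and 81 were at least 2-fold higher in the library numbered 1 on each of days 1, 2, 3 and 6, and 0 members showed the opposite. Rank 4, with 140 and 141 CPM in CK1 and CK2 and 0.79 CPM in CK3, had 11.3 and 0.61 CPM on day 1, 17.8 and 1.76 CPM on day 2, 23.7 and 2.83 CPM on day 3, 22.6, 17.9 and 3.30 CPM on day 4, 6.98 and 2.91 CPM on day 6, and 9.72, 9.39 and 2.71 CPM on day 8. Its libraries 5i4d3 and 5i8d3 were thus the low ones of their days, which was so for all 4 members, and these had 0.789 to 7.06 CPM in CK3. The labels do not say what the library number stands for, and the fits with the number as a block are given with the other alternatives.

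CK3, the day 0 library that was not used in choosing the members, differed from CK1 and CK2 in most of them. The median difference of CK3 from the mean of CK1 and CK2 on the log2(CPM + 1) scale was −3.17 for the members and −1.98 for features at the members' levels. CK3 was at least 1 log2 unit below CK1 and CK2 for 82 members, within 1 unit for 12 and at least 1 unit above for 6, and 63.5% of the features at the members' levels were at least 1 unit below. For 68 members CK3 lay below the highest day 1 or day 8 library. The direction of the induced days against CK3 alone depended on the scaling. On library totals, the median member was higher on day 1 by 0.70, on day 2 by 0.67, on day 3 by 0.35 and on day 4 by 0.27, and was at −0.13 on day 6 and −0.14 on day 8. On that baseline the features at the members' levels had medians from 1.89 to 2.13. On TMM-scaled totals, a scaling added after the data were seen, the median member was below CK3 on every day, from −0.36 on day 2 to −1.36 on day 6.

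Members that stayed high in CK3 included very abundant ones. Rank 23 had 352 and 361 CPM in CK1 and CK2 but 3282 CPM in CK3, and rank 95 had 998 and 985 CPM against 5551 CPM. The 11 members above both CK1 and CK2 in CK3 had a median length of 2002 nt, and the other 89 had 2916 nt. The part of length in these differences was not tested.

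**Figure D5:**
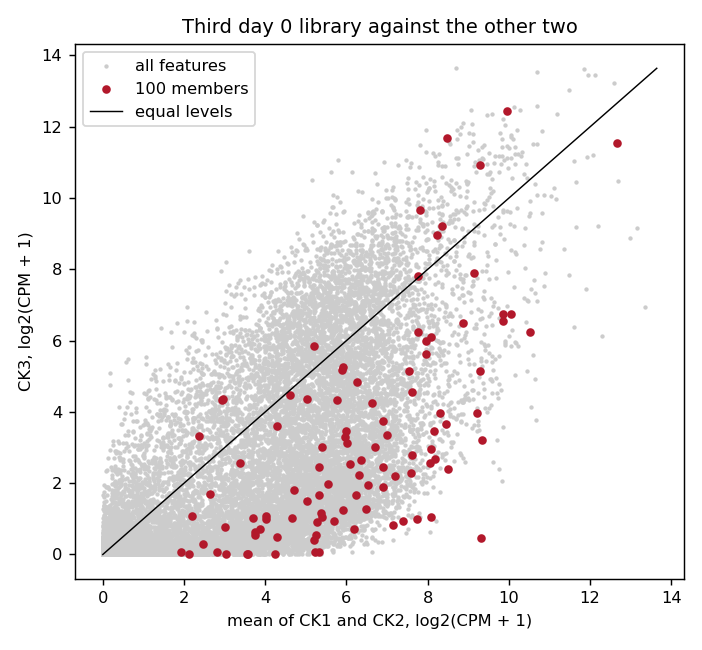
Level in CK3 against the mean of CK1 and CK2, both as log2(CPM + 1), for all features (grey) and the 100 members (red), with a line of equal levels. Of the members, 89 lie below the line, 82 of them by 1 or more, and 11 lie above it.

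Whether CK3 was above the induced days depended on the scaling. On library totals, CK3 lay above all 9 libraries of days 2 to 6 for 32 of 100 members (15.7% of 22047 features) and below all 9 for 42 (52.1%). On TMM-scaled totals these counts were 54 (28.5%) and 20 (40.2%). In the edgeR comparison of CK3 with days 2 to 6, in which the single CK3 library had to take its spread from the other days, 52 of 98 members tested were called higher and 17 lower, beside 32.0% and 44.3% of 16873 features. Without TMM factors, a setting added after the data were seen, 32 were called higher and 37 lower, beside 18% and 64.1% of all features. The 32 and the 17 were called in the same direction in both fits, and 2 members changed direction.

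The scaling of CK3 shifts all features by about the same amount. The median log2 fold change of CK3 over days 2 to 6 was 1.22 for the members and −1.05 for all features with TMM, and −0.48 and −2.73 without. For gene4959, CK3 was above days 2 to 6 by 2.34 with TMM (SE 0.17, adjusted p = 4.06e-06) and by 0.64 without (adjusted p = 0.00631, both by edgeR). For gene15690 the values were 2.52 (SE 0.45, adjusted p = 0.000863) and 0.82 (adjusted p = 0.124, both by edgeR), so its call was lost without the factors.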

How the data were processed

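The authors deposited whole-number counts per feature for 17 libraries, and FPKM values for the 22657 features with a count; the deposited FPKM equalled count over library total and whole feature length (relative tolerance 1e-06). The submitters' processing notes name FastQC 0.10.1, HTSeq and DESeq2 1.16.1; aligner, genome build and annotation are not given in the sources used here. Members and lists were chosen with earlier results of these data known. The lists of gene names, fixed for use with named identifiers, could not be applied. At most 2 identifiers that fell (highest score, and highest mean FPKM in CK1 and CK2) and 2 that were called higher at day 6 (0 found) were to be named; other members were picked as examples after their values were seen.

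Counts of days 2, 3, 4 and 6, with CK3 in a second fit, were filtered (filterByExpr), scaled by TMM and tested with edgeR 4.0.16 (glmQLFit, glmQLFTest; R 4.3.3), Benjamini-Hochberg over all features, adjusted p under 0.05. Standard errors are the log2 fold change over the square root of F. Only the day 6 against day 2 comparison was run on simulated counts, with rises added at day 6. Falls and the CK3 comparison were not simulated. DESeq2 1.42.0, limma 3.58.1 on log2(FPKM + 1) and log2(FPKM + 0.1), RLE, no filter, a mean of 5 CPM, all 17 libraries, the study threshold (an absolute log2 fold change of at least 2 with an unadjusted p under 0.05) and leaving out each library were alternatives; fits without TMM factors or with the column number as a replicate block, and medians on TMM-scaled totals, were added after the data were seen. Counting intervals and floors cover counting error only.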

Additional observations from a re-analysis of the deposited data

Results flagged for a closer look

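The count of 31 members called lower at day 6 against day 2, of 91 tested, was singled out because the days of induction differed by a test of that difference itself (edgeR's quasi-likelihood test, adjusted p under 0.05). The same test called 0 members higher, beside 14.5% of 16212 features called lower and 13.6% higher. Neither count of members was kept in every fit that left out a library of these days. Such a fit left 1 library in the day, so the size of the change is given here. The median log2 fold change of the members was −0.50 with all libraries. It was −0.43 without 5i2d1, −0.74 without 5i2d2, −0.83 without 5i6d1 and −0.64 without 5i6d2. Over all features these 4 medians ran from −0.05 to 0.01.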

How the results depend on the processing

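Of the alternatives computed, 192 values kept their direction and their side of the threshold or stayed near the reported value, 50 moved, 5 lost a call and 4 reversed. The 4 reversals were the medians of days 1 to 4 with CK3 as the baseline on library totals (0.70, 0.67, 0.35 and 0.27), and the medians of days 6 and 8 moved to −0.13 and −0.14. On TMM-scaled totals they did not reverse, and the medians against CK3 on days 1, 2, 3, 4, 6 and 8 were −0.42, −0.36, −0.74, −0.79, −1.36 and −1.29. With CK3 added to the day 0 minimum, 22 of the 100 members were chosen again, against 78 with a pseudocount of 0.1, 87 on FPKM and 71 to 99 when a library was left out.

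For day 6 against day 2, 17 members were called lower at the study threshold, 20 with a mean of 5 CPM (60 members tested) and 14 to 36 when a library was left out, and 1 was called higher by DESeq2 and by limma on log2(FPKM + 1), and 0 to 4 when a library was left out. For day 4 against day 2, 2 were called lower with a mean of 5 CPM, 14 by DESeq2 and 0 to 27 when a library was left out, and 0 to 3 higher. For day 6 against day 4, 3 were called lower at the study threshold, 1 with no filter, 5 with all 17 libraries, 13 by DESeq2, 5 by limma under either pseudocount and 0 to 6 when a library was left out, and 1 was called higher at the study threshold and by DESeq2, and 0 to 2 when a library was left out. For CK3 against days 2 to 6, 32 were called higher without TMM factors, 33 with a mean of 5 CPM and 31 by limma under either pseudocount, against 49 to 55 when a library was left out. Those called lower were 11 at the study threshold, 37 without TMM factors, 11 with a mean of 5 CPM, 34 and 39 by limma (pseudocounts 1 and 0.1), and 15 to 18 when a library was left out. The cause was not tested. Shares of all features called lower at these settings also varied. For day 6 against day 2 they were 4.66% at the study threshold and 16.9% with a mean of 5 CPM. For day 4 against day 2 they were 0.414% with a mean of 5 CPM and 3.36% by DESeq2. For day 6 against day 4 they ran from 0.359% with no filter to 3.14% by DESeq2. For CK3 they ran from 33.8% at the study threshold to 64.6% by limma with a pseudocount of 0.1. Shares of all features called higher for CK3 were 18% without TMM factors and 37.4% with a mean of 5 CPM, where 60 members were tested. By limma they were 18.1% and 18% (pseudocounts 1 and 0.1). For day 6 against day 2 the shares called higher were 12.6% by DESeq2 and 11.7% by limma on log2(FPKM + 1). For day 6 against day 4 they were 0.987% at the study threshold and 2.88% by DESeq2.

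Over all features, the share of calls that were higher was 48.4% for day 6 against day 2, 35.5% without TMM factors, 37.8% and 36.8% by limma and 62.4% without 5i6d1. It was 42.0% for CK3 against days 2 to 6, and 21.9% without TMM factors. For day 6 against day 4 it was 60.0%, and 34.7% without TMM factors. The column names could not be tied to the prefixes of the sample titles. A replicate block on the number in the column name was fitted after the data were seen. The difference of library 1 from library 2 correlated between days across 15519 features, which are not independent replicates (Pearson's r 0.75 for days 2 and 3, 0.14 for days 2 and 6 and 0.28 for days 3 and 6). With the replicate block, 36 members were called lower between days 2 and 6, 9 between days 2 and 4 and 0 between days 4 and 6. The shares of all features called lower were 15.7%, 2.74% and 0%. No member was called higher in these comparisons, beside 16.6%, 3.37% and 0.00617% of all features. For gene4959 the block gave −1.04 (adjusted p = 0.00558 by edgeR). The filter on low counts left 9 members untested in days 2 to 6.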
